A study of Saccharomyces cerevisiae with 12 samples.

Results

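The subunits of the yeast RNA polymerases and of Mediator were followed across 4 strains of Saccharomyces cerevisiae. The set holds every gene whose symbol on the array platform begins with RPA, RPB, RPC, RPO, MED or SRB followed only by a number, and RET1. The rule used names and no measured values, and it gave 44 of the 5448 genes measured. Of these, 7 belong to polymerase I alone, 7 to polymerase II alone and 10 to polymerase III alone. A further 2 are shared by polymerases I and III, 5 are common to all 3 nuclear polymerases, 1 (RPO41) is the mitochondrial polymerase and 12 are Mediator subunits. SRB4, the core subunit of the Mediator head, was not analysed here.

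Polymerase I makes the large ribosomal RNA precursor, polymerase II makes messenger RNA, and polymerase III makes transfer RNA and the small 5S ribosomal RNA. Each enzyme has a large and a second-largest subunit that form the active site, an assembly heterodimer beneath them, a stalk that takes part in initiation, and small subunits common to all. Mediator is the coactivator that carries signals from DNA-bound activators to polymerase II. Its head and middle contact the polymerase, its tail contacts activators, and a separable kinase module can keep the core from binding the polymerase. In growing yeast, the genes of polymerases I and III are part of a wider program of ribosome production.

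Messenger RNA was measured on 12 Affymetrix Yeast Genome 2.0 arrays, 3 separate cultures per strain, all in the W303 background. The wild type was W303-1A. The bmh mutant carries the temperature-sensitive allele bmh1-170ts and lacks BMH2, so both genes of the yeast 14-3-3 proteins, which bind phosphorylated partners, are altered. The hdac mutant is deleted for HDA1 and RPD3, which encode histone deacetylases, and the combined mutant carries all 4 mutations. Every strain grew in YP medium with 5% glucose at 30 °C to an OD600 between 0.7 and 1.3, so the comparison is of exponential growth under glucose repression. Values are log2 signals, and differences are given with their standard error (SE) and n = 3 arrays per strain. A gene was called changed at an adjusted p under 0.05 in limma with Benjamini-Hochberg adjustment over all 5448 genes.

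The labels were checked on the mutated genes. BMH2 fell from 11.64 ± 0.17 (SD, n = 3) on wild-type arrays to 4.03 ± 0.12 on bmh arrays. HDA1 and RPD3 read 3.82 ± 0.02 and 3.86 ± 0.09 on hdac arrays, against 8.22 ± 0.03 and 9.61 ± 0.10 on wild-type arrays. In the combined mutant all 3 deleted genes lay below 4.10. BMH1 is present in all strains, and its temperature-sensitive allele is a change that the RNA level does not check. BMH1 read 12.89 ± 0.08 on wild-type, 12.93 ± 0.03 on bmh, 12.79 ± 0.03 on hdac and 12.71 ± 0.05 on combined arrays. The combined difference from the wild type (−0.18) was called lower. All subunit signals, from 6.60 to 13.1, lay above the highest of the 18 readings of a deleted gene, 4.13. Array medians ran from 8.806 to 8.846. Wild-type array 1 stood apart: 61 genes differed 2-fold or more from their average on the remaining wild-type arrays, against 5 and 6 genes for those arrays, and the median SD of the 44 subunits was 0.14 on wild-type arrays and 0.0563 to 0.065 in the mutants. Mating-type markers also differed between strains. The summed signal of 7 a-cell markers had a log2 value of 14.3 to 14.5 on the wild-type arrays, 8.93 to 9.04 on the hdac arrays and about 12.6 on the combined arrays. That of 4 alpha-cell markers was 8.31 to 8.55 in the wild type, 12.4 in the hdac mutant and 9.63 to 9.86 in the combined mutant. The combined value came from SAG1 alone, with a mean of 9.53 against 7.97 in the wild type. MF(ALPHA)1 (3.81 against 4.02), STE3 (4.29 against 4.46) and MF(ALPHA)2 (6.13 against 5.99) were near their wild-type means. Of the 7 a-cell markers, 6 were called lower in the combined mutant, where 45.2% of all genes were called lower. They fell unevenly: BAR1 had a mean of 7.51 against 10.89 in the wild type, and AGA2 10.13 against 10.30. The part of the mating-type differences in the subunit differences was not tested. In RNA from whole cultures, fewer cells of one type and less RNA per cell cannot be told apart.

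Loss of the deacetylases went with lower signals for most subunits of all 3 nuclear polymerases and of Mediator. In the hdac mutant against the wild type, 36 of 44 subunits fell and 1 rose, while 41.6% of all genes were called lower and 29.8% higher. The median subunit difference was −0.44, a 1.36-fold lower signal, against −0.09 for all genes. Polymerase I had 6 of 7 subunits lower (median −0.39), polymerase II 5 of 7 (−0.29), polymerase III 8 of 10 (−0.46), the shared subunits 7 of 7 (−0.65) and Mediator 10 of the 12 taken by name (−0.64). The 12 Mediator subunits under other names had 5 falls and 1 rise, with a median of −0.18. In the combined mutant against the wild type, 38 subunits fell and none rose, with 0 of the 44 past an unadjusted p of 0.05 upward in limma, where 45.2% of all genes were called lower and 30.4% higher. The median there was −0.59, against −0.13 for all genes. Without wild-type array 1, the counts that fell were 38 in each of these comparisons. The shares of all genes called lower by that fit were 44.3% (hdac) and 47.3% (combined).

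**Figure D1:**
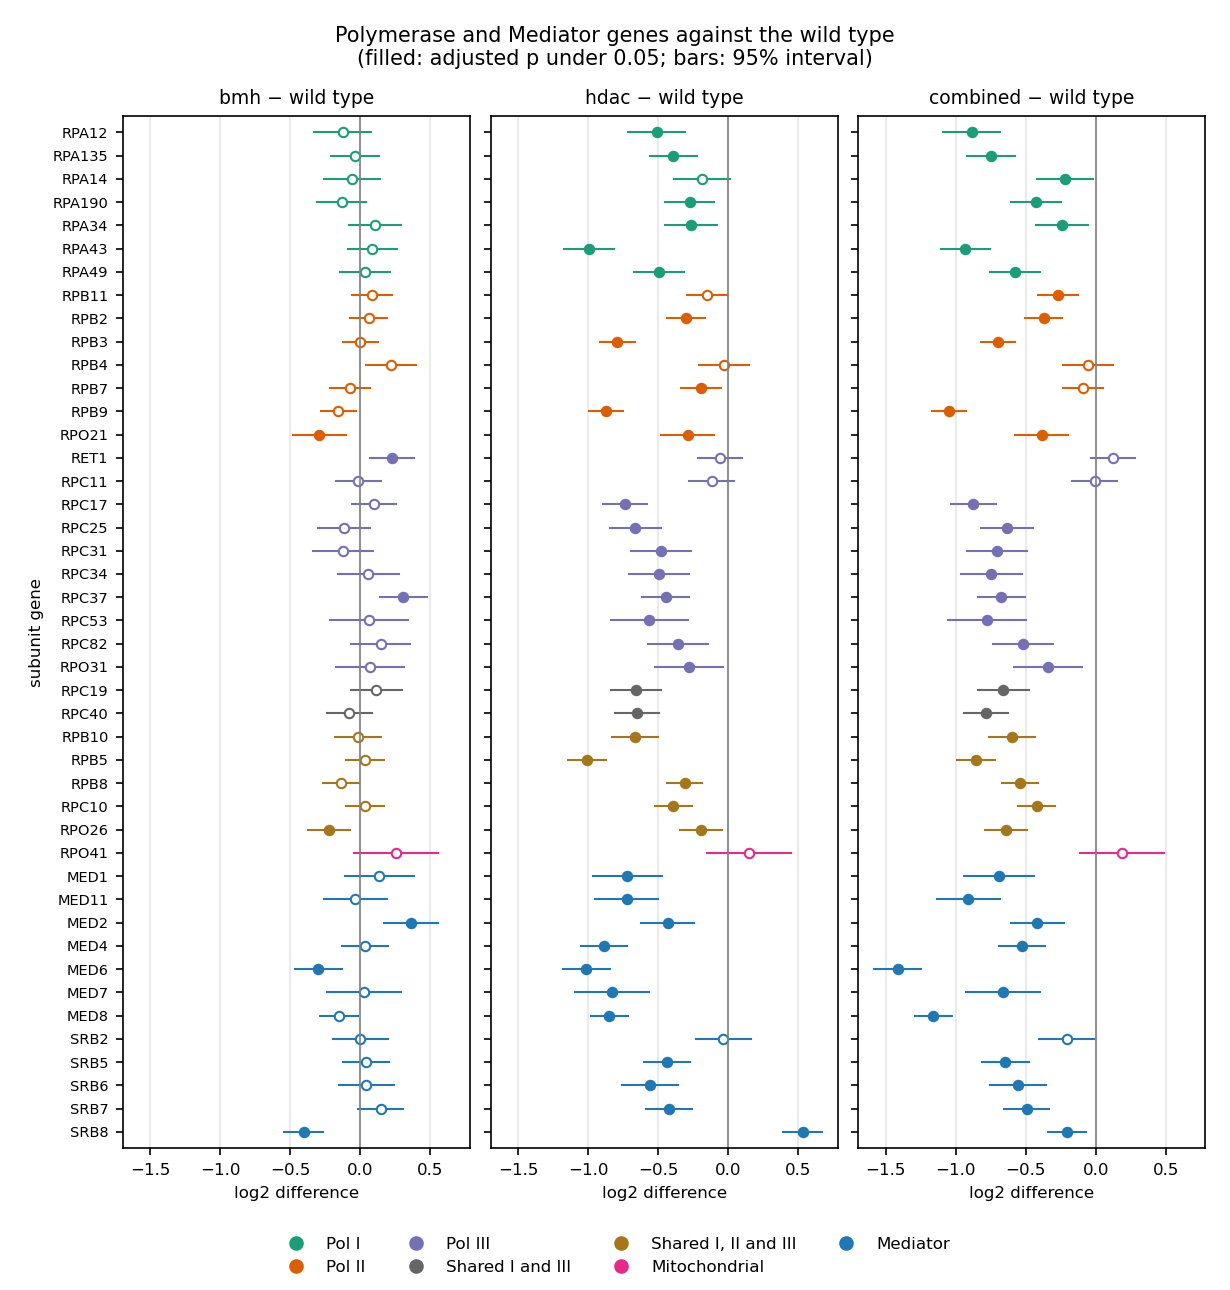
Log2 difference of each of the 44 subunit genes from the wild type in the bmh, hdac and combined mutants (x axis, log2 units), with 95% intervals from the limma fit and colours by complex; filled points passed the adjusted p of 0.05. In the hdac panel 36 points are called below 0 and SRB8 is called above it, while the bmh panel has 3 called above and 4 below.

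Within polymerase I, the stalk subunit RPA43, which binds the initiation factor Rrn3, moved furthest. RPA43 read 10.50, 10.63 and 10.82 on the wild-type arrays, 10.71, 10.76 and 10.73 on the bmh arrays, 9.68, 9.75 and 9.53 on the hdac arrays, and 9.76, 9.67 and 9.72 on the combined arrays. The 6 arrays without the deacetylases lay below all others, and the 2 deacetylase mutants did not separate. The hdac difference was −0.99 ± 0.08 (adjusted p = 3.96e-07), a 1.99-fold lower signal. Its stalk partner RPA14 differed by −0.18 ± 0.09 in the same comparison and was not called (adjusted p = 0.0901); without wild-type array 1 it was −0.29 (adjusted p = 0.00294). In the combined mutant RPA14 was called at −0.22 (adjusted p = 0.0466), a call that was lost when any 1 of 10 arrays was left out (adjusted p up to 0.203) and held without wild-type array 1 or combined array 3. It was also lost after quantile normalization (adjusted p = 0.0751) and median centring (adjusted p = 0.0947).

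The largest subunit of polymerase I, RPA190, fell by less. RPA190 read 11.92, 12.20 and 12.12 on wild-type arrays, 12.0001, 11.93 and 11.92 on bmh arrays, 11.79, 11.81 and 11.83 on hdac arrays, and 11.80, 11.63 and 11.54 on combined arrays. All hdac and combined arrays lay below the wild-type arrays, the nearest of them by little. The hdac difference was −0.27 ± 0.08 (adjusted p = 0.00906) and the combined difference −0.43 ± 0.08 (adjusted p = 0.000404). RPA43 and RPA190 are neighbours in the RefSeq annotation of assembly R64 and are the only adjacent pair among the 44 genes, yet their hdac differences were −0.99 and −0.27. The second-largest subunit RPA135 fell by 0.39 in the hdac and by 0.75 in the combined mutant, and RPA12, which takes part in RNA cleavage, fell by 0.51 and 0.89. The heterodimer partners RPA49 and RPA34, which act in initiation and elongation, fell by 0.49 and 0.27 in the hdac mutant; the RPA34 call was lost without wild-type array 3 (−0.17, adjusted p = 0.0624) or hdac array 1 (−0.23, adjusted p = 0.0581).

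Polymerase II had both strongly and weakly lowered subunits. RPB9, a small subunit that supports transcription fidelity, read 9.71, 9.74 and 9.84 on wild-type arrays, 9.59, 9.66 and 9.57 on bmh arrays, 8.92, 8.89 and 8.86 on hdac arrays, and 8.67, 8.77 and 8.71 on combined arrays. The 4 strains formed a descending series without overlap between arrays, though the bmh difference from the wild type was not called (−0.16, adjusted p = 0.0511). RPB9 was 1.83-fold lower in the hdac mutant (−0.87 ± 0.06, adjusted p = 5.26e-08) and 2.07-fold lower in the combined mutant (−1.05 ± 0.06, adjusted p = 6.62e-09). RPO21, the largest subunit with the C-terminal repeat domain that is phosphorylated during transcription, read 10.68, 10.85 and 10.87 on wild-type arrays, 10.46, 10.46 and 10.60 on bmh arrays, 10.62, 10.32 and 10.60 on hdac arrays, and 10.47, 10.35 and 10.42 on combined arrays. Every mutant array was below every wild-type array, and the mutants overlapped each other. Its differences from the wild type were −0.29, −0.29 and −0.39 (SE 0.09 each) in the bmh, hdac and combined mutants, with adjusted p = 0.0223, 0.00973 and 0.00139.

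The other polymerase II subunits included partners that differed. RPB3, a partner in the assembly heterodimer, fell by 0.79 in the hdac mutant, while its partner RPB11 differed by −0.15 (adjusted p = 0.061, and −0.19 with adjusted p = 0.0383 without wild-type array 2). RPB2, the second-largest subunit, fell by 0.30. The stalk subunit RPB7, which binds the emerging RNA, fell by 0.20, a call lost without hdac array 1 (−0.18, adjusted p = 0.0597) or with median centring (−0.16, 0.0551), and its partner RPB4 differed by −0.03 (adjusted p = 0.775). In the combined mutant against the wild type, RPB4 (−0.06) and RPB7 (−0.09) were the polymerase II subunits not called.

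In polymerase III, the stalk subunits RPC17 (−0.74) and RPC25 (−0.66) had the largest falls in the hdac mutant. The termination pair RPC53 and RPC37 fell by 0.56 and 0.45. In the initiation trimer RPC34 fell by 0.49, RPC31 by 0.48 and RPC82 by 0.36. RPO31, the largest subunit, read 10.24, 10.72 and 10.68 on wild-type arrays, 10.71, 10.58 and 10.56 on bmh arrays, 10.26, 10.35 and 10.20 on hdac arrays, and 10.31, 10.19 and 10.12 on combined arrays. Wild-type array 1 lay among the deacetylase mutants, and the other wild-type arrays lay above them. The hdac difference of RPO31 was −0.28 ± 0.11 (adjusted p = 0.0384). It was −0.43 ± 0.07 (adjusted p = 0.000109) without wild-type array 1 and was not called when wild-type array 2 (−0.20, adjusted p = 0.154), array 3 of the same strain (−0.21, 0.138), combined array 2 (−0.28, 0.0507), hdac array 1 (−0.28, 0.0836) or hdac array 3 (−0.25, 0.113) was left out, nor with median centring (−0.24, 0.0611). The replicate block (adjusted p = 0.056) and a fit of the 2 strains alone (0.0986) also ended the RPO31 call.

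The remaining subunits of polymerase III, RET1 and RPC11, were not called in the hdac mutant against the wild type. RET1, the second-largest subunit, read 10.12, 10.40 and 10.39 on wild-type arrays, 10.54, 10.52 and 10.52 on bmh arrays, 10.19, 10.27 and 10.27 on hdac arrays, and 10.47, 10.41 and 10.39 on combined arrays. The bmh arrays were highest, and hdac and wild-type arrays overlapped. Its hdac difference was −0.06 ± 0.07 (adjusted p = 0.483), and −0.15 (adjusted p = 0.0178) without wild-type array 1. RPC11, which cleaves RNA and acts in termination and reinitiation, differed by −0.12 in the hdac mutant (adjusted p = 0.172; −0.19 with adjusted p = 0.0162 without wild-type array 1) and by −0.01 in the combined mutant. Its relatives fell in the same comparison by 0.51 (RPA12) and 0.87 (RPB9).

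The subunits common to several polymerases were all lower in the hdac mutant. RPB5 read 11.31, 11.40 and 11.49 on wild-type arrays, 11.41, 11.38 and 11.50 on bmh arrays, 10.44, 10.41 and 10.33 on hdac arrays, and 10.48, 10.56 and 10.59 on combined arrays. The deacetylase mutants were about 1 log2 unit below the other strains, with no overlap. The hdac difference was −1.01 ± 0.06 (adjusted p = 3.98e-08), a 2.01-fold lower signal. The assembly heterodimer of polymerases I and III, RPC40 and RPC19, fell together by 0.65 and 0.66, and RPB10, RPC10 and RPB8 fell by 0.67, 0.39 and 0.31. RPO26, the common subunit also called Rpb6, behaved differently across strains. It read 11.82, 11.64 and 11.84 on wild-type arrays, 11.57, 11.50 and 11.57 on bmh arrays, 11.48, 11.62 and 11.63 on hdac arrays, and 11.13, 11.18 and 11.06 on combined arrays. The combined arrays were lowest, and the single mutants overlapped. RPO26 differed from the wild type by −0.19 ± 0.07 in the hdac mutant (adjusted p = 0.0255), a call lost without array 1 (−0.16, 0.0525) or 3 (−0.16, 0.089) of the wild type or hdac array 1 (−0.14, 0.113), and after quantile normalization (−0.14, 0.0826) or median centring (−0.15, 0.0633). The combined difference was −0.64 ± 0.07 (adjusted p = 3.29e-06).

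The single-subunit mitochondrial polymerase RPO41 was not called in any comparison. RPO41 read 8.72, 9.37 and 9.34 on wild-type arrays, 9.47, 9.39 and 9.35 on bmh arrays, 9.26, 9.33 and 9.29 on hdac arrays, and 9.45, 9.32 and 9.23 on combined arrays. All arrays but wild-type array 1 lay within 9.23 and 9.47. The hdac difference was 0.15 ± 0.14 (95% interval −0.15 to 0.45), and −0.06 ± 0.07 without wild-type array 1. MTF1, the partner that lets this polymerase open promoters, fell by 0.98 in the hdac mutant, and ABF2, which packages mitochondrial DNA, rose by 0.35. Of the 6 genes of mitochondrial transcription listed beside RPO41, 1 rose and 2 fell there, against 29.8% and 41.6% of all genes. The falls numbered 5 without wild-type array 1, and 1 without wild-type array 2 or 3, bmh array 2, combined array 2 or hdac array 1.

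**Figure D2:**
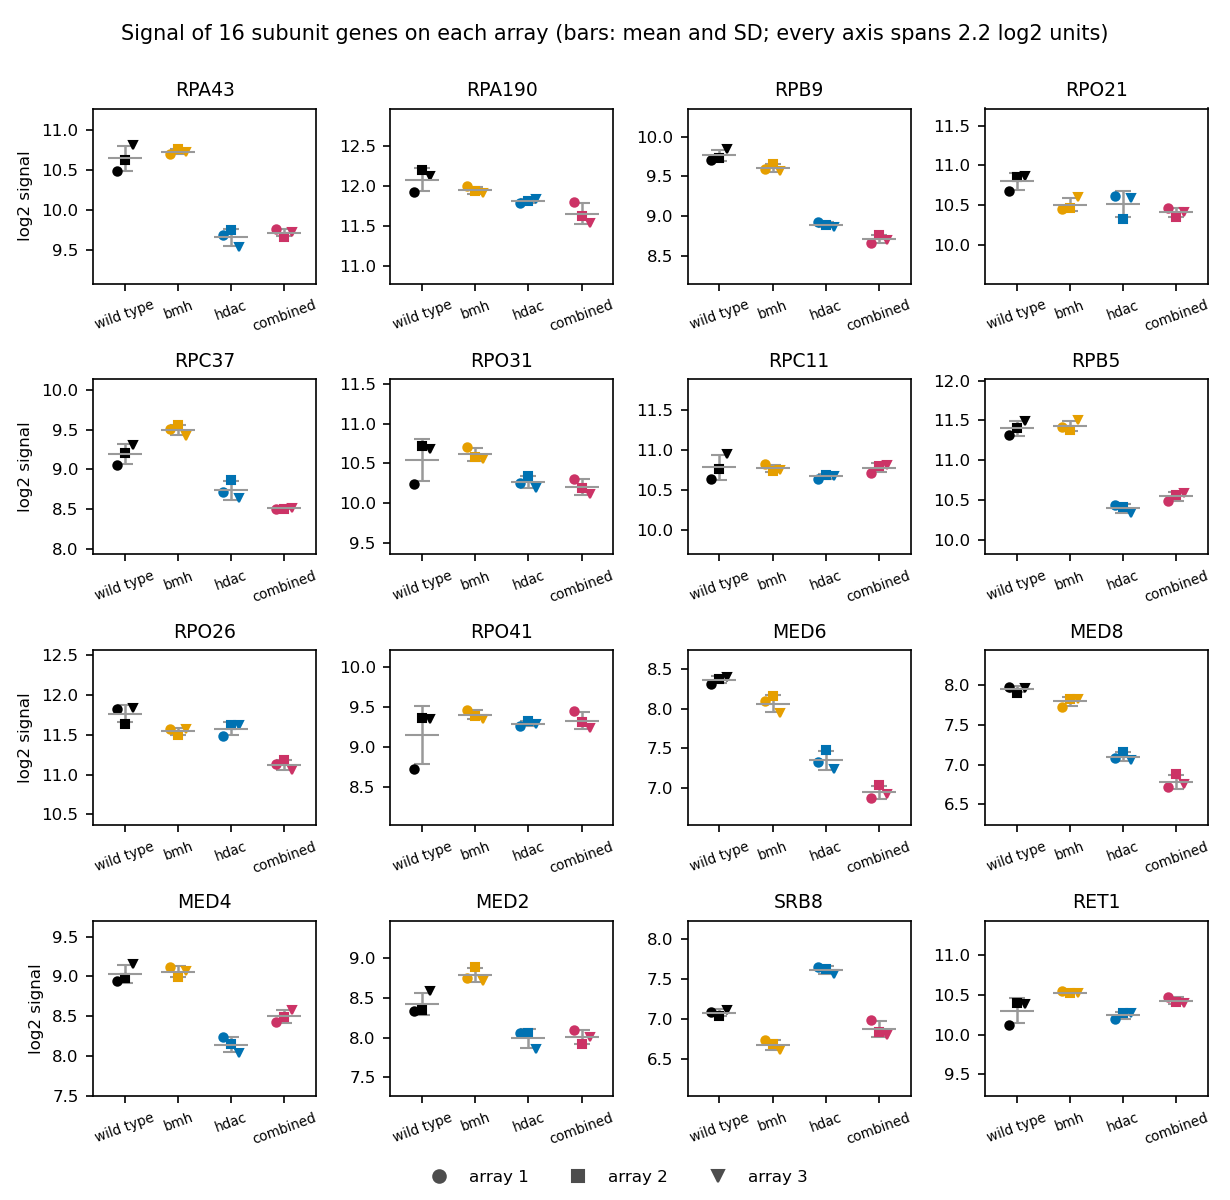
Log2 signal (y axis, each spanning 2.2 units) of 16 subunit genes on the 12 arrays, by strain (x axis); points are arrays, and bars are the strain mean and SD (n = 3). RPA43, RPB5 and RPB9 form separate high and low levels with and without the deacetylases, SRB8 is highest in the hdac mutant, and wild-type array 1 is low for RPO31 and RPO41.

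In the hdac mutant against the wild type, Mediator held the only called rise among the 44 subunits. The falls of MED6, RPB5 and RPA43 were the deepest and did not differ by more than their SE. Without wild-type array 1 they were −1.04, −1.05 and −1.07. MED6, a head subunit that contacts polymerase II, read 8.31, 8.38 and 8.40 on wild-type arrays, 8.09, 8.15 and 7.94 on bmh arrays, 7.33, 7.48 and 7.24 on hdac arrays, and 6.88, 7.03 and 6.92 on combined arrays. No 2 strains overlapped, and the order ran from wild type through bmh and hdac to combined. MED6 was 2.02-fold lower in the hdac mutant (−1.01 ± 0.08, adjusted p = 1.95e-07) and 2.67-fold lower in the combined mutant (−1.42 ± 0.08, adjusted p = 6.92e-09). MED8, another head subunit, read 7.97, 7.90 and 7.96 on wild-type arrays, 7.73, 7.83 and 7.82 on bmh arrays, 7.09, 7.16 and 7.05 on hdac arrays, and 6.71, 6.88 and 6.75 on combined arrays. Its arrays had the same order, though the bmh difference from the wild type was not called (−0.15, adjusted p = 0.0771). MED8 was 2.24-fold lower in the combined mutant (−1.16 ± 0.06, adjusted p = 5.46e-09). Head subunit SRB2 was the Mediator member not called in the hdac mutant (−0.03, adjusted p = 0.754).

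SRB8, the Med12 subunit of the kinase module, went the other way. SRB8 read 7.09, 7.03 and 7.11 on wild-type arrays, 6.73, 6.69 and 6.60 on bmh arrays, 7.65, 7.62 and 7.56 on hdac arrays, and 6.98, 6.83 and 6.80 on combined arrays. The 4 strains did not overlap, with the hdac mutant highest and the bmh mutant lowest. SRB8 was 1.45-fold higher in the hdac mutant than in the wild type (0.53 ± 0.06, adjusted p = 1.01e-05) and lower in the combined mutant (−0.21 ± 0.06, adjusted p = 0.0103).

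Another 12 Mediator subunits carry older names that the rule did not take, which brings the measured subunits to 24. In the hdac mutant 5 of these 12 fell and 1 rose, with a median of −0.18. Of all 24, 15 fell and 2 rose, with a median of −0.44. The grouping by module follows textbook structure and was made after the values were seen, so it is a description. In the hdac mutant, 5 of 7 head, 6 of 7 middle and 3 of 5 tail subunits fell, as did the scaffold RGR1 (−0.53), and none of these rose. Of all genes 41.6% were called lower and 29.8% higher there, and nothing is read from these small modules as particular to them. The kinase module had no fall among 4: SSN2, the Med13 subunit that joins the module to the core, rose by 1.38 ± 0.11 (adjusted p = 3.69e-07), SRB8 rose, and the kinase SSN3 (−0.16) and its cyclin SSN8 (−0.07) were not called. SSN2 read 7.39, 7.003 and 6.90 on wild-type arrays and 8.53, 8.40 and 8.48 on hdac arrays, without overlap. Its combined arrays were higher still, at 8.76, 8.90 and 8.99. The deepest fall of all 24 was that of NUT2, an essential middle subunit (Med10), at −1.52 ± 0.08 (adjusted p = 6.08e-09). NUT2 had a mean of 5.98 ± 0.09 (SD, n = 3) on wild-type arrays and 4.47 ± 0.03 on hdac arrays, close to the 4.13 of deleted genes. The tail subunit GAL11, a target of activators, differed by 0.21 in the hdac mutant (adjusted p = 0.0543) and rose by 0.62 in the combined mutant.

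**Figure D3:**
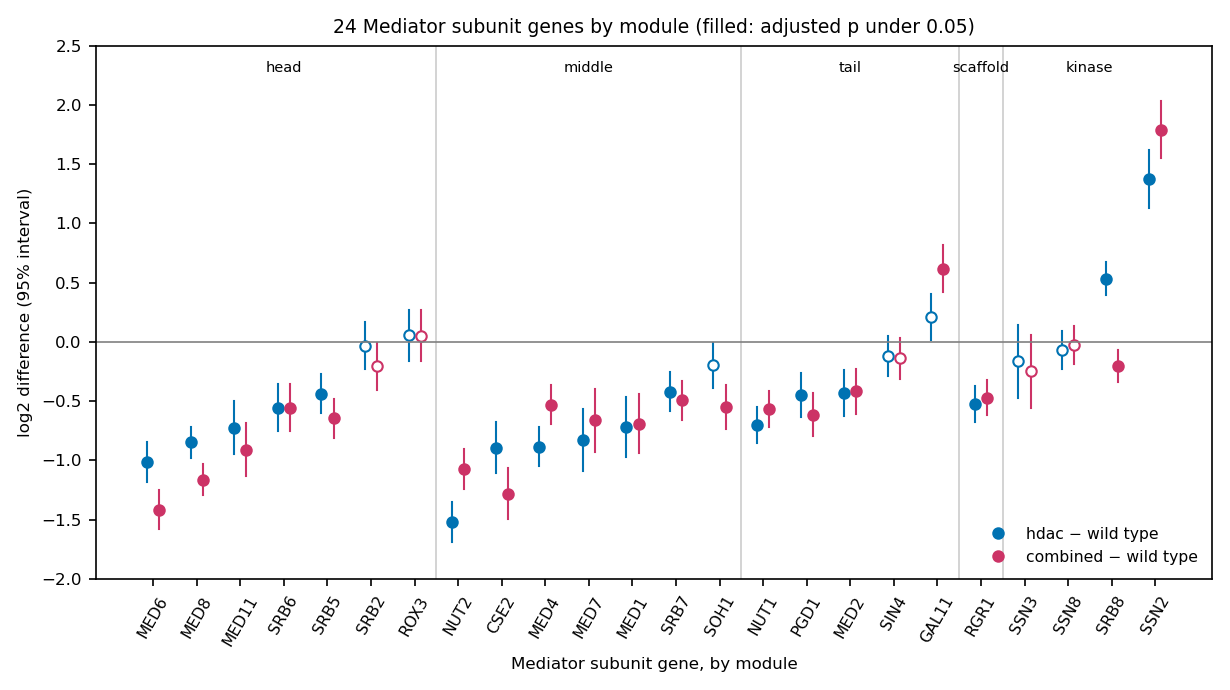
Log2 difference from the wild type (y axis, with 95% intervals) of 24 Mediator subunit genes ordered by module, in the hdac and the combined mutant; filled points passed the adjusted p of 0.05. Head and middle subunits lie mostly below 0, and SSN2 of the kinase module lies at 1.38 and 1.79.

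The difference that went with loss of the deacetylases was also measured where 14-3-3 function was already reduced, by setting the combined mutant against the bmh mutant. These arrays are other than those of the hdac and wild-type comparison. Here 36 of 44 subunits fell and 1 rose, where 45.0% of all genes were called lower and 30.1% higher, and the median was −0.60 against −0.12 for all genes. Of the 44, 34 fell in both backgrounds and SRB8 rose in both. RPB7 and RPO21 were called only with intact BMH genes, RPB11 and RPB4 only in the bmh background, and the difference between backgrounds was called for none of these 4 (adjusted p from 0.128 to 0.286). RPA14, RET1, RPC11, RPO41 and SRB2 were called in neither. Calls in both or neither background were not counted for all genes, so these counts are not read as particular to the subunits. Across the 44 genes the 2 sets of differences had a Pearson correlation of 0.854, against 0.834 over all genes. Both values are across genes, which are not independent replicates.

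**Figure D4:**
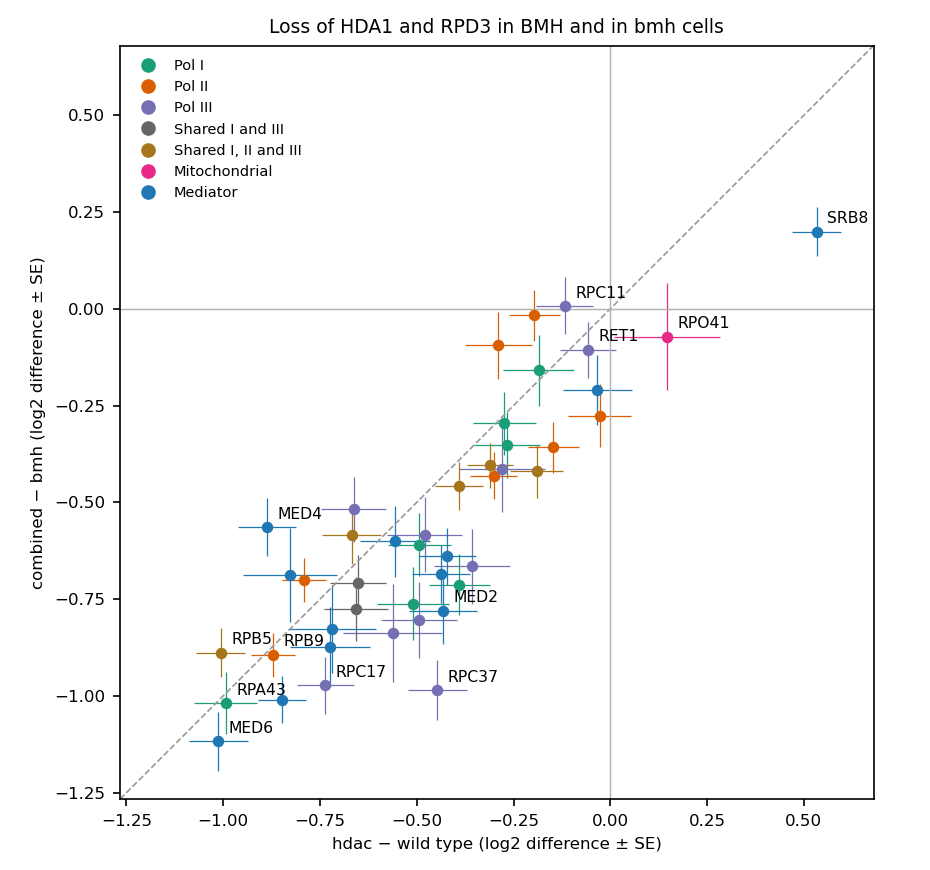
Log2 difference between strains without and with HDA1 and RPD3, in cells with intact BMH genes (x axis, hdac minus wild type) and in bmh cells (y axis, combined minus bmh). Shown are 44 subunit genes with SE bars, colours by complex and the line of equal differences. The points follow the line, with 34 of the 44 below it, and RPC37, MED2 and SRB8 lie furthest from it. Called below 0 on both axes are 34 genes.

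The largest falls in the bmh background were those of MED6 (−1.12 ± 0.08, adjusted p = 7.55e-08), RPA43 (−1.02 ± 0.08, adjusted p = 2.77e-07) and MED8 (−1.01 ± 0.06, adjusted p = 2.61e-08). The rise of SRB8 was 0.20 ± 0.06 (adjusted p = 0.0125), and it was 0.04 (adjusted p = 0.629) after quantile normalization, 0.17 (adjusted p = 0.0545) without bmh array 3 and 0.14 (adjusted p = 0.0576) without combined array 1. SRB2, at −0.21 (adjusted p = 0.0515), lay at the threshold. It was called in a fit of the 6 arrays alone, without (adjusted p = 0.0134) or with replicate pairs (0.00529), and was not called with pairs in all 12 arrays (0.0787). The stalk partners RPA43 and RPA14 differed from each other in this background as in the other, by 0.86 and 0.81 log2 units. Those of polymerase III, RPC17 and RPC25, differed by −0.97 and −0.52 here and by −0.74 and −0.66 with intact BMH genes, and the interaction was called for neither (adjusted p = 0.124 and 0.427).

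Reduced 14-3-3 function alone went with few changes among the subunits. In the bmh mutant against the wild type 3 rose and 4 fell, where 14.8% of all genes were called higher and 17.2% lower. The median was 0.03, against −0.01 for all genes. This count depended on wild-type array 1: without it 4 rose and 11 fell, where 20.4% and 22.8% of all genes were called, and the median was −0.02. Without bmh array 1 or 2 the count was 4, with no count made over all genes.

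The tail subunit MED2 rose most. MED2 read 8.34, 8.34 and 8.59 on wild-type arrays, 8.75, 8.89 and 8.72 on bmh arrays, 8.06, 8.06 and 7.85 on hdac arrays, and 8.09, 7.92 and 8.004 on combined arrays. Bmh arrays lay above the wild type, and both deacetylase mutants lay below it. The bmh difference was 0.36 ± 0.09 (adjusted p = 0.00768). RPC37, which acts in polymerase III termination, read 9.05, 9.21 and 9.30 on wild-type arrays, 9.51, 9.56 and 9.42 on bmh arrays, 8.71, 8.87 and 8.64 on hdac arrays, and 8.50, 8.51 and 8.52 on combined arrays. Its strains did not overlap, with the bmh mutant highest and the combined mutant lowest, and the bmh difference was 0.31 ± 0.08 (adjusted p = 0.00914). RET1 rose by 0.23 (adjusted p = 0.0309), and was not called without bmh array 1, 2 or 3 (adjusted p from 0.0688 to 0.084) or with the 2 strains fitted alone (0.123). Without wild-type array 1 the RET1 difference was 0.14 (adjusted p = 0.0462). SRB8 fell by 0.41 ± 0.06 (adjusted p = 0.000454), a 1.32-fold lower signal, and MED6 fell by 0.30 ± 0.08 (adjusted p = 0.0105). RPO21 (−0.29) was not called without wild-type array 2 or 3 or bmh array 1 or 2 (adjusted p from 0.0668 to 0.078). RPO26 (−0.22, adjusted p = 0.0277) was not called without wild-type array 3 or any bmh array (adjusted p from 0.0538 to 0.0993).

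The same mutations were also compared in cells that already lacked the deacetylases. In the combined against the hdac mutant 1 subunit rose and 10 fell, where 17.5% of all genes were called higher and 18.9% lower, and the median was −0.08 against −0.02 for all genes. The share of subunits that fell was near that of all genes. Without wild-type array 1, whose spread enters the pooled error, 3 rose and 14 fell, where 24.1% and 26.7% of all genes were called. SRB8 fell by 0.74 ± 0.06 (adjusted p = 2.56e-06), a 1.67-fold lower signal, RPO26 by 0.45 ± 0.07 (adjusted p = 0.000303) and MED6 by 0.40 ± 0.08 (adjusted p = 0.00146). MED4, a middle subunit, rose. It read 8.95, 8.98 and 9.16 on wild-type arrays, 9.12, 8.995 and 9.06 on bmh arrays, 8.23, 8.15 and 8.04 on hdac arrays, and 8.43, 8.48 and 8.58 on combined arrays. The combined arrays lay above the hdac arrays and below the other strains, and the difference was 0.36 ± 0.08 (adjusted p = 0.00308). Further falls were those of RPA12 (−0.38), RPA135 (−0.36), MED8 (−0.31), RPB8 (−0.23), RPC37 (−0.23), SRB5 (−0.21) and RPB9 (−0.18). The last 3 of these were sensitive to single arrays. RPC37 was not called without hdac array 1 or 2 or any combined array (adjusted p up to 0.138), and RPB9 without hdac array 1 or 2 or combined array 1 or 3 (up to 0.0843). SRB5, a head subunit, was not called without any 1 of 9 arrays (adjusted p up to 0.173), and kept its call without wild-type arrays 1 and 2 and bmh array 1.

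The differences that went with the 14-3-3 mutations, with and without the deacetylases, had a Pearson correlation of 0.533 over the 44 genes, against 0.415 over all genes, again across genes. For each gene, the gap between the backgrounds is the same interaction value for either kind of mutation, so this coefficient and the one for the deacetylases do not rank them. SRB8, MED6 and RPO26 fell in both, no gene rose in both, and 30 were called in neither. Such counts over both backgrounds were not made for all genes, so nothing is read from them as particular to the subunits. RPC37 was called in opposite directions, higher by 0.31 with the deacetylases present and lower by 0.23 without them.

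**Figure D5:**
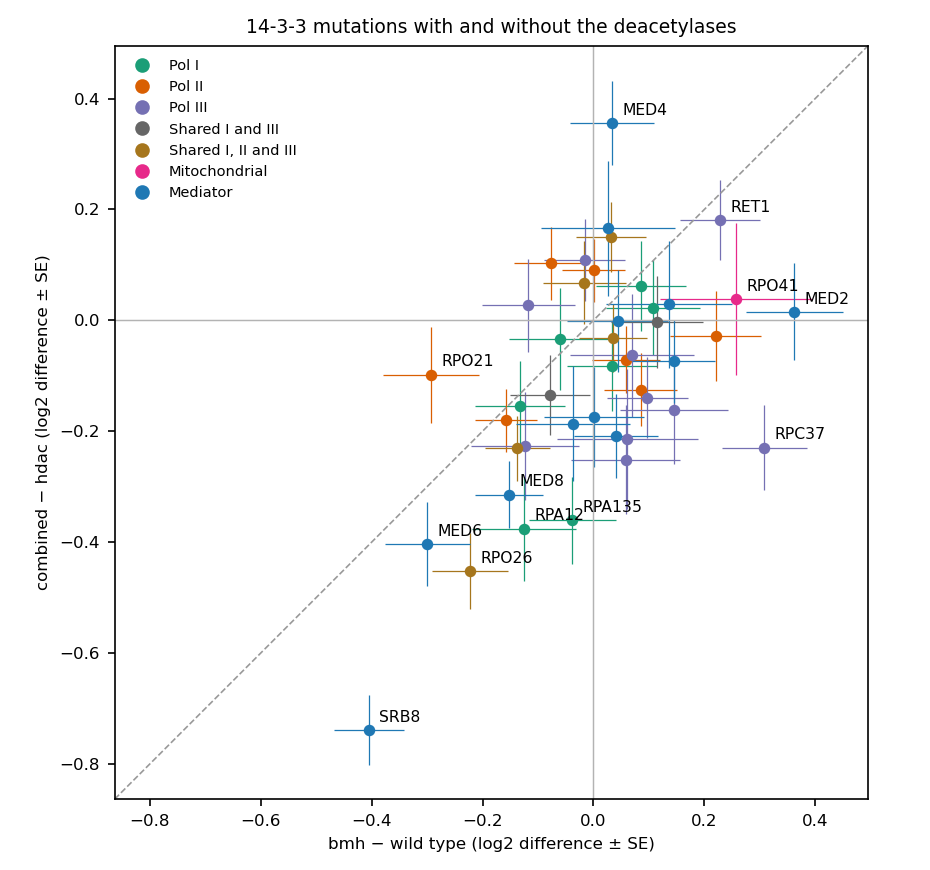
Log2 difference between strains with and without the 14-3-3 mutations, where HDA1 and RPD3 are present (x axis, bmh minus wild type) and absent (y axis, combined minus hdac). Shown are 44 subunit genes with SE bars, colours by complex and the line of equal differences. SRB8, MED6 and RPO26 are called below 0 on both axes, RPC37 lies at 0.31 and −0.23, and MED4 lies at 0.03 and 0.36.

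Whether the 2 kinds of mutation added up was tested with the interaction, the combined difference from the wild type less the sum of the 2 separate differences. It was called for 3 of 44 subunits, 1 higher and 2 lower, where 12.3% of all genes were called higher and 11.3% lower. The combined mutant had 1.45-fold less RPC37 than the sum of the separate differences (−0.54 ± 0.11, adjusted p = 0.00367). SRB8 was lower than the sum by 0.33 ± 0.09 (adjusted p = 0.0171), and MED4 was higher by 0.32 ± 0.11 (adjusted p = 0.0466). The MED4 call was lost without any 1 of 9 arrays (adjusted p from 0.0505 to 0.114) and held without wild-type array 1, combined array 1 or hdac array 1. After quantile normalization it was 0.28 (adjusted p = 0.0674) and after median centring 0.31 (0.0611). Without wild-type array 1 there were 7 calls, 1 higher and 6 lower, where 17.8% of all genes were called higher and 18.2% lower. Without wild-type array 3 there were 5, all lower, with no count made over all genes. For the other 41 subunits the interaction was not called, and the median over the 44 was −0.11 (−0.02 for all genes) and −0.03 without wild-type array 1.

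Genes that work with the polymerases were read from lists, against 29.8% of all genes called higher and 41.6% lower in the hdac mutant. Polymerase I factors fell nearly throughout, with 10 of 11 lower in the hdac mutant and none higher. They included FOB1 (−0.93), which binds the ribosomal DNA and blocks replication forks there, and RRN10 (−0.88) and UAF30 (−0.81), subunits of the upstream activating factor. Of 50 ribosome biogenesis genes 42 fell and none rose in the hdac mutant, with a median of −0.49. The bmh mutant had 0 of the 50 called in limma, 0 of them past an unadjusted p of 0.05, where 14.8% of all genes were called higher and 17.2% lower. Without wild-type array 1, 12 of the 50 were called lower (24%), near the 22.8% of all genes called lower there. Over all single arrays left out, the falls ranged from 0 to 12 and the rises from 0 to 5. The 5 rises came with an array other than wild-type array 1 left out, with no count made over all genes. In the hdac mutant polymerase III factors had 4 higher and 6 lower of 11, shares near those of all genes, and 2 were higher without hdac array 2. MAF1, the repressor of polymerase III, rose by 0.66 ± 0.08 (adjusted p = 1.87e-05) and TFC4, a subunit of the assembly factor TFIIIC, rose by 0.48, while its partners TFC8 and TFC1 fell by 0.56 and 0.54. MAF1 read 8.92, 9.29 and 9.28 on wild-type arrays and 9.83, 9.84 and 9.82 on hdac arrays, without overlap.

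Among general factors of polymerase II 12 of 20 fell in the hdac mutant and none rose. The falls were led by KIN28 (−0.76), the kinase of TFIIH that phosphorylates the RPO21 repeat domain, and TOA1 (−0.73), a subunit of TFIIA. Of 18 elongation factors 13 fell and none rose, led by CTK1 (−1.29), another kinase of that domain, and PAF1 (−1.15), which names the Paf1 complex. Without wild-type array 3 the count that fell was 8, and with a difference of at least 0.5 required it was 5. The general factors had 4 falls under that requirement. Assembly and import factors had 4 of 8 lower and 1 higher, where 41.6% and 29.8% of all genes were called, so the lower share was near that of all genes. NPA3, a GTPase needed for nuclear import of polymerase II, fell by 0.92, and IWR1, which guides that import, fell by 0.81. GPN3, a relative of NPA3, fell by 0.71, and GPN2, another relative, rose by 0.35.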

How the data were processed

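The authors deposited log2 signal values made with RMA in affy, per the submitters' processing notes; for versions and build, not given in the sources used here; base 2 was inferred. RMA brings all arrays to 1 distribution, so a change in total mRNA would not show. Of 5715 probe sets, 5497 had 1 symbol, 218 had none, and 49 were dropped for a brighter one. No member used a probe set ending in _s_at or _x_at.

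Differences were fitted with limma 3.58.1 (R 4.3.3, statmod 1.5.0) as a means model of the 4 groups, with 8 residual and 3.82 prior degrees of freedom, and tested on simulated data. Members and lists were chosen with earlier results of these data known. Per-array values are given for the largest subunits, RPO41 and up to 3 called rises and falls per comparison without overlap; list genes are up to 4 with the largest called change. The genes BUR1, FPT1 and NAM1 were not matched. Groups follow the genotype labels; the source names give the hdac and combined strain names the other way round.

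Same-numbered bmh and combined arrays had correlated deviations from their group means (0.135, 0.100 and 0.129, against −0.106 to −0.0306 for other pairs). Such deviations cancel within a group, so positive matched values push the other pairs down. Differently numbered arrays reached 0.192 between the combined mutant and the wild type, and 0.142 between the hdac mutant and the wild type. The labels state no pairing, and these values do not decide whether arrays were paired. Alternatives are given below.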

Additional observations from a re-analysis of the deposited data

Results flagged for a closer look

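The interaction in limma was called for 3 of the 44 subunits: MED4 (0.322, adjusted p = 0.0466), RPC37 (−0.538, adjusted p = 0.00367) and SRB8 (−0.333, adjusted p = 0.0171). Among the genes listed beside them it was called higher for BRF1 (0.298), a subunit of the polymerase III initiation factor TFIIIB, CCL1 (0.45), the cyclin of TFIIH, and the Mediator subunit NUT2 (0.356). It was called lower for CTK2 (−0.368), a cyclin partner of CTK1, HMO1 (−0.383), a factor on ribosomal DNA, MOT1 (−0.48), which removes the TATA-binding protein from DNA, TFB5 (−0.533), a small TFIIH subunit, and TFG2 (−0.511), a TFIIF subunit. It was also called for 7 of 7 a-cell markers, 4 of 4 alpha-cell markers and 2 of 50 ribosome biogenesis genes. Of all genes, 12.3% had an interaction called higher and 11.3% lower. CCL1, singled out after its values were seen, fell by 0.48 in the hdac mutant and differed from the wild type by −0.06 in the combined mutant (adjusted p = 0.417). MOT1, chosen likewise, differed by −0.04 in the hdac mutant (adjusted p = 0.605) and fell by 0.65 in the combined mutant.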

How the results depend on the processing

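No gene difference that was called reversed its sign under any of the 26 settings; sign changes of genes uncalled in both fits were not counted as reversals. Over left-out arrays, 3063 gene results stayed on their side of the threshold, 67 lost and 38 gained a call; over the settings that left no array out these were 3019, 44 and 61, and over the 2 settings added after seeing the data 249, 58 and 1. With single arrays left out, the subunits called ranged from 4 to 15 (rising 2 to 4, falling 2 to 11) for bmh against wild type, 33 to 39 for hdac against wild type, 36 to 38 for combined against wild type, 36 to 40 for combined against bmh (rising 0 to 1), 8 to 17 for combined against hdac (rising 1 to 3, falling 7 to 14) and 2 to 7 for the interaction (rising 0 to 1, falling 2 to 6). Quantile normalization gave 1 rise in combined against wild type, 0 in combined against bmh and 2 in combined against hdac. The interaction had 0 rises and 4 falls after quantile normalization and after median centring, and 0 rises with a trended prior or the replicate block. Fitting only the 2 groups compared gave 17 calls, 3 of them rises, for combined against hdac. Array weights, which gave wild-type array 1 a weight of 0.0863, made 14 calls for bmh against wild type (5 rises, 9 falls), 26 for combined against hdac (6 rises, 20 falls) and 13 for the interaction (2 rises, 11 falls). At an adjusted p of 0.01, bmh against wild type had 3 calls (1 fall), combined against bmh 0 rises and the interaction 1 call (0 rises, 1 fall). With differences of at least 0.5 required, an alternative chosen after seeing the data, bmh against wild type had 0 calls (0 rises, 0 falls), hdac against wild type 19 (18 falls), combined against bmh 0 rises, combined against hdac 1 (0 rises, 1 fall) and the interaction 1 (0 rises, 1 fall). Apart from the fit without wild-type array 1, calls over all genes were not counted under these settings or the replicate blocks below. The subunit counts are therefore not read as particular to the subunits. The cause of these shifts was not tested.

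With the replicate number as a block in all 12 arrays, the subunits called were 7, 36, 38, 37, 10 and 2 in the same order of comparisons. The block in the 6 bmh and combined arrays, also added after seeing the data, called 38, the added call being SRB2, which the same 6 arrays also called without the block (adjusted p = 0.0134). The 12-array block ended the calls of RPO31 in hdac against wild type (0.056), SRB5 in combined against hdac (0.0723) and the MED4 interaction (0.0721). Fits rest on 3 arrays per strain, which limits precision, and on signals scaled to 1 distribution.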
